A study of Hordeum vulgare with 12 samples.

Results

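EPlHVUG rows are barley gene models that carry an identifier of Ensembl Plants in place of the MLOC identifier of the genome consortium. In the stem base, 130 of 1856 such rows (7.0%) had 10 or more counts in at least 3 of 12 libraries, and these 130 rows are the members described here. They stood among 26073 identifiers in all. The same filter was passed by 20148 of 24211 MLOC rows (83.2%), and 20280 rows of any kind were tested. Most EPlHVUG rows were not detected, since 1457 of 1856 (78.5%) had 0 counts in every library, against 1259 MLOC rows (5.2%). A further 269 EPlHVUG rows had counts but did not pass the filter.

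The study followed crown root formation in the barley stem base, the zone between stem and root from which crown roots emerge, by RNA-seq of seedlings at 1 and 10 days after germination (1DAG and 10DAG). Wild-type plants were of the spring cultivar Golden Promise, and the other genotype was a line overexpressing AtCKX1, an Arabidopsis cytokinin dehydrogenase, which is an enzyme that degrades the plant hormone cytokinin. There were 3 libraries each of wild type at 1DAG, wild type at 10DAG, AtCKX1 at 1DAG and AtCKX1 at 10DAG. Wild-type replicates were biological replicates made from pooled seedlings. How the AtCKX1 replicates were raised, the promoter driving AtCKX1 and the number of lines are not given in the sources used here. At 1DAG seedlings were on wet filter paper and at 10DAG in a hydroponic Hoagland solution, and the excised segment was longer at 10DAG, so age, medium and segment length cannot be told apart.

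The prefix EPl marks models that Ensembl Plants added to the annotation supplied by a genome project. Additions of this kind are largely genes of noncoding RNAs, such as transfer RNAs, ribosomal RNAs, small nuclear and nucleolar RNAs and microRNA precursors, which take part in protein synthesis, splicing, RNA modification and gene silencing. The kind of RNA is not given for any single row in the sources used here, so no role is assigned to any member. Libraries were prepared from polyadenylated RNA, a step that retains little of most small or untailed RNAs, and reads aligned to more than 1 place were not counted, which makes values of near-identical copies uncertain. The identifiers have no match in the barley gene table used here, and positions and sequences were not analysed here.

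The numbers in the identifiers fell into 2 series separated by a gap. Of 1744 rows numbered 1 to 1779, 87 were members (4.99%), and of 112 rows numbered 10001 to 10112, 43 were members (38.4%). The series are called the low-numbered and the high-numbered series below. They were counted apart only after the values had been seen, so counts per series are a description and no test was made between them. Only 55 members had 10 or more counts in every library, against 17762 MLOC rows. The filter was passed through 1DAG libraries alone by 19 members and through 10DAG libraries alone by 2, and such members could hardly fail to differ with age. At its edge, the third-highest count was 10 in 3 members, 11 in 4 and 12 in 5, and just outside it was 9 in 4 rows, 8 in 8 and 7 in 10.

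The 12 libraries held 36100002 to 51997655 reads on genes. The transgene row had 0 counts in all 6 wild-type libraries, 16, 11 and 18 counts in AtCKX1 libraries at 1DAG and 42, 7 and 12 at 10DAG, as the genotype labels say. CRL1.1 and SCR-like1, genes linked to crown root formation in the study, were detected in every library, but neither defines the stem base. Wild-type 1DAG replicate 1 and wild-type 10DAG replicate 2 stood apart from the rest in earlier work on these data, and the wild-type 1DAG libraries also stood apart from each other in the reads on members. RNA was from whole stem bases, so fewer cells of a kind and less RNA per cell cannot be told apart.

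Members took few reads, and their sums were highest in 2 of the 3 wild-type 1DAG libraries. Levels are given as CPM, the count of a row scaled by the total count on genes of its library, which is not divided by length. The 130 members together took 319, 766 and 1160.0 CPM in the 3 wild-type 1DAG libraries (748 ± 421 CPM, SD, n = 3). In wild type at 10DAG they took 159, 147 and 275 CPM (194 ± 70.6, SD, n = 3). In AtCKX1 they took 288, 418 and 270.3 CPM at 1DAG (325 ± 80.3, SD, n = 3). At 10DAG the AtCKX1 values were 271, 212 and 280.3 CPM (255 ± 36.9, SD, n = 3). All 3 wild-type 1DAG libraries were above all 3 wild-type 10DAG libraries, whereas the AtCKX1 groups overlapped. The wild-type mean was 3.86 times higher at 1DAG than at 10DAG, and the AtCKX1 mean 1.28 times higher. A sum over chosen members was given no test. Wild-type 1DAG replicate 3 carried much of the first ratio, which was 2.80 without it.

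The 2 series behaved differently in these sums. Low-numbered members took 96.6, 171 and 169 CPM in wild type at 1DAG and 54.1, 49.8 and 49.0 CPM at 10DAG. In AtCKX1 the same members took 158, 170.3 and 117 CPM at 1DAG and 52.0, 52.6 and 45.0 CPM at 10DAG. These groups did not overlap between ages in either genotype, and the ratios of means were 2.86 in wild type and 2.98 in AtCKX1. High-numbered members took 223, 594 and 991 CPM in wild type at 1DAG and 105, 97.6 and 226 CPM at 10DAG. In AtCKX1 they took 130.2, 247 and 154 CPM at 1DAG and 219, 159.7 and 235 CPM at 10DAG. Here wild-type 1DAG replicate 1 lay just below the highest wild-type 10DAG library, and the AtCKX1 ages overlapped. The ratio of 1DAG to 10DAG means was 4.22 in wild type and 0.865 in AtCKX1. At 1DAG the wild-type mean of the high-numbered series was 3.40 times the AtCKX1 mean, and 2.31 times without wild-type 1DAG replicate 3. The genotypes overlapped at 1DAG, since wild-type replicate 1 (223 CPM) lay below AtCKX1 replicate 2 (247 CPM). EPlHVUG00000010090 alone took a mean of 422 CPM in wild type at 1DAG and 104 CPM in AtCKX1. Without the 3 members of highest mean CPM, the series took 98.2 ± 67.5 CPM in wild type and 45.8 ± 10.5 CPM in AtCKX1 at 1DAG (SD, n = 3 each).

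**Figure D1:**
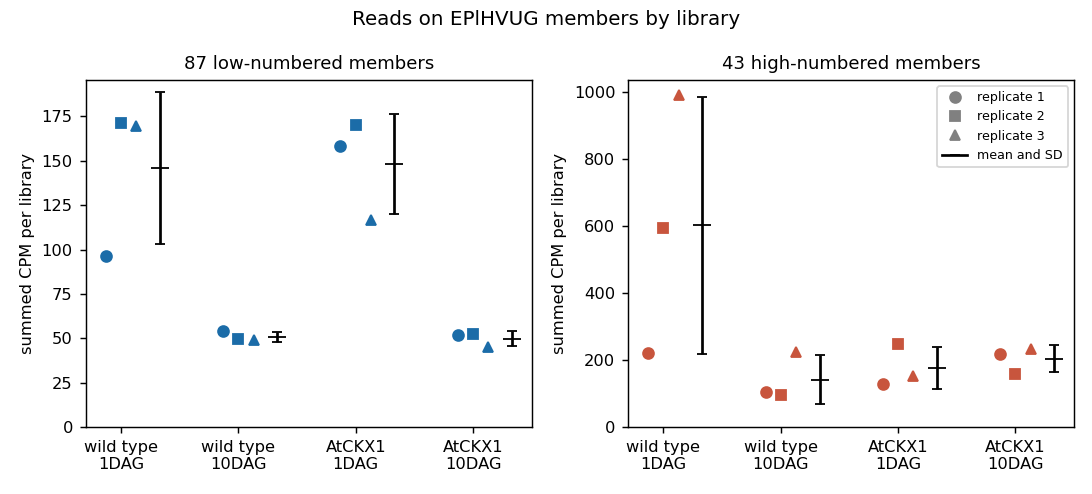
Summed CPM (y axis, linear from 0) of the 87 low-numbered members (left) and the 43 high-numbered members (right) in each library, by genotype and age (x axis). Symbols are replicates 1 to 3 and bars the mean and SD of 3 libraries. Low-numbered members lay between 96.6 and 171 CPM at 1DAG and between 45.0 and 54.1 CPM at 10DAG in both genotypes, while high-numbered members reached 991 CPM in 1 wild-type 1DAG library.

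The share of reads aligned to more than 1 place was higher at 1DAG than at 10DAG in both genotypes. It was 8.60, 9.54 and 10.3% in wild type at 1DAG and 7.32 to 7.43% in wild type at 10DAG. In AtCKX1 it was 8.76 to 9.18% at 1DAG and 7.02 to 7.39% at 10DAG. In AtCKX1 this share did not overlap between ages, whereas the summed CPM of members did. Within wild-type 1DAG it had the same order as the reads on members, lowest in replicate 1 and highest in replicate 3. The order was also the same within AtCKX1 1DAG. Within both 10DAG groups, however, replicate 2 had the highest share and the lowest summed CPM of members. The part of this share in the results on members was not tested.

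Most members were weakly covered. The mean CPM over 12 libraries had a median of 0.691 over members (quartiles 0.321 and 1.62, range 0.104 to 182), against 16.6 over MLOC rows (quartiles 3.60 and 48.0). The median was 0.644 in the low-numbered and 0.706 in the high-numbered series. Of the members, 79 lay under 1 CPM, 43 from 1 to under 5, 6 from 5 to under 25 and 2 at 25 or more, whereas 8187 MLOC rows were at 25 or more. Reads were concentrated: EPlHVUG00000010090 alone held 47.9% of the summed mean CPM of members, the first 3 members 59.9% and the first 10 members 70.4%. Without the first 3 members, the sums were 244 CPM in wild type at 1DAG, 80.2 at 10DAG, 194 in AtCKX1 at 1DAG and 92.3 at 10DAG. Lengths of the rows are not known here, so these values rank rows by the reads they take and not by transcripts.

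**Figure D2:**
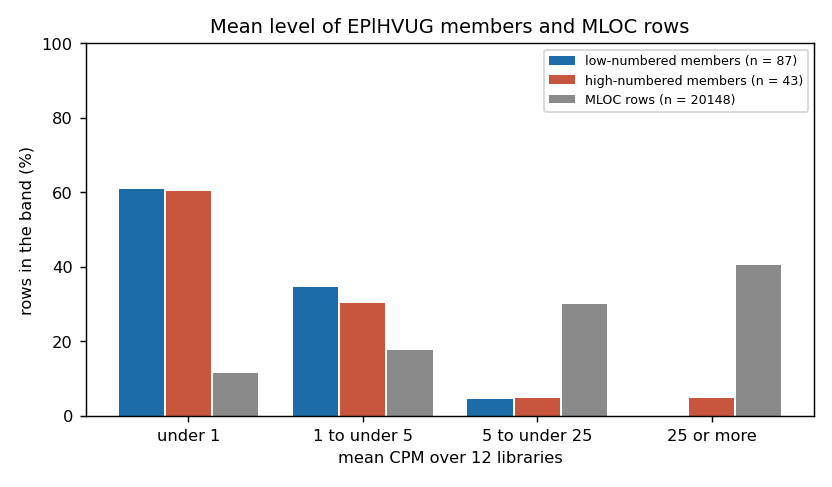
Share of rows (y axis, %) in each band of mean CPM over 12 libraries (x axis) for 87 low-numbered members, 43 high-numbered members and 20148 MLOC rows. Members of both series sit mostly under 1 CPM, and 2 of 130 reach 25 CPM or more, where 8187 MLOC rows lie.

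Replicates of members also scattered more. The coefficient of variation of CPM over 3 libraries, taken as the median over rows and groups, was 33.2% for members and 14.2% for MLOC rows. At matched levels this gap over all members was absent under 1 CPM (39.3% against 41.9%) and small from 1 to under 5 CPM (28.0% against 23.8%). In these 2 bands the high-numbered series had 47.7% and 35.2%, and the low-numbered series 35.5% and 24.3%. Members scattered more from 5 to under 25 CPM (18.0% against 13.6%) and above all at 25 CPM or more, where the 2 members with the most reads had 44.8% against 9.53%. The widest scatter was in wild type at 1DAG, where the median was 73.9% for the high-numbered series, 37.3% for the low-numbered series and 21.5% for MLOC rows. These 3 values are not matched for level. Under 1 CPM they were 89.8%, 44.2% and 53.6%, and from 1 to under 5 CPM 66.1%, 36.7% and 34.0%. Wild-type 1DAG replicate 3 was the highest of all 12 libraries for 39 of 43 high-numbered members, and replicate 1 the lowest of its group for 40 of 43.

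EPlHVUG00000010090 took more reads than any other member and ranked at percentile 95.1 of all tested rows by mean CPM. Its CPM was 153, 413 and 699 in wild type at 1DAG and 53.4, 52.5 and 144 in wild type at 10DAG. In AtCKX1 it was 66.5, 154 and 90.5 at 1DAG and 128, 89.2 and 143 at 10DAG. The wild-type ages did not overlap, although replicate 1 at 1DAG and replicate 3 at 10DAG were close, and the AtCKX1 ages overlapped. It fell with age in wild type by 2.33 on the log2 scale (SE 0.57, adjusted p = 0.00469, edgeR's quasi-likelihood test, p adjusted by Benjamini and Hochberg's method over every tested row). In AtCKX1 the log2 change was 0.14 (SE 0.54, adjusted p = 0.838, edgeR). The genotypes at 1DAG differed by -1.99 (AtCKX1 over wild type, SE 0.56, adjusted p = 0.166, edgeR), which did not pass the test.

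EPlHVUG00000010111 followed it in reads and in pattern. Its CPM was 27.7, 85.3 and 103 in wild type at 1DAG and 14.9, 11.7 and 27.3 at 10DAG. In AtCKX1 it was 13.5, 26.1 and 19.1 at 1DAG and 25.6, 23.2 and 33.7 at 10DAG. The lowest wild-type 1DAG library exceeded the highest wild-type 10DAG library only narrowly. Its wild-type log2 change of -2.0 passed the test (SE 0.47, adjusted p = 0.00375, edgeR), and its AtCKX1 change of 0.42 did not (SE 0.45, adjusted p = 0.453). These were the only 2 members at 25 CPM or more.

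EPlHVUG00000010043 had the same course at a lower level. It had 4.88, 16.7 and 30.7 CPM in wild type at 1DAG against 2.96, 2.85 and 6.25 at 10DAG, and these groups overlapped. In AtCKX1 it had 3.69, 7.19 and 4.72 CPM at 1DAG and 9.53, 5.69 and 8.56 at 10DAG. Its wild-type log2 change was -2.11 (SE 0.57, adjusted p = 0.00859, edgeR) and its AtCKX1 change 0.54 (SE 0.55, adjusted p = 0.431). Across the 12 libraries, the log2(CPM + 0.1) values most like those of EPlHVUG00000010090 were of EPlHVUG00000010111 (Pearson r 0.98), EPlHVUG00000010043 (0.96), EPlHVUG00000010040 (0.93), EPlHVUG00000010021 (0.92) and EPlHVUG00000010017 (0.91), all of the high-numbered series. The median r was 0.76 over 903 pairs within the high-numbered series, 0.70 over 3741 pairs within the low-numbered series and 0.54 over 3741 pairs between them. All pairs share the same libraries and their depth, so r is a description.

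High-numbered members were not all alike. EPlHVUG00000010031 had 4.52, 10.3 and 17.6 CPM in wild type at 1DAG and 11.4, 10.8 and 14.5 at 10DAG, with a log2 change of 0.18 (adjusted p = 0.710, edgeR). In AtCKX1 it had 8.69, 9.67 and 5.97 CPM at 1DAG and 18.0, 14.4 and 12.5 at 10DAG. The AtCKX1 groups did not overlap, but the log2 change of 0.82 did not pass (SE 0.38, adjusted p = 0.0927, edgeR). EPlHVUG00000010028 had 2.73, 4.58 and 9.43 CPM in wild type at 1DAG and 2.62, 2.85 and 4.76 at 10DAG, and its change of -0.71 did not pass (adjusted p = 0.189, edgeR).

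With age in wild type, members shifted towards lower levels. A row was called when its adjusted p did not exceed 0.05 and its log2 change was 1 or more in either direction. By this rule 86 of 130 members (66.2%) were lower at 10DAG and 2 higher, while 13.4% of all tested rows were called lower and 15.6% higher (29.0% in either direction). Among MLOC rows 2634 of 20148 (13.1%) were lower and 3151 higher. The median log2 fold change was -1.81 over members and -0.02 over all tested rows. In 72 members (55.4%) every 10DAG library lay below every 1DAG library, against 28.6% of all rows. Some of the 86 passed the filter through 1DAG libraries alone and could hardly fail to be lower. Of the 55 members with 10 or more counts in every library, 37 were lower and 0 higher. Among the 17762 MLOC rows with that coverage 12.9% were lower and 13.1% higher. At an unadjusted p under 0.05, 94 of 130 members differed in either direction (72.3%), against 60% of all rows.

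Both series took part in the wild-type change. Of low-numbered members 53 of 87 (60.9%) were lower and 2 higher (median log2 change -1.48), and of high-numbered members 33 of 43 (76.7%) were lower and 0 higher (median -2.0, range -3.99 to 0.18). The groups were cleanly apart in 50 of 55 called low-numbered members and in 17 of 33 called high-numbered ones, against 95.2% of all called rows. The calls in the high-numbered series depended on single libraries: 18 were left without wild-type 1DAG replicate 3, 18 without wild-type 10DAG replicate 1, and 19 when only the 6 wild-type libraries were fitted. Without wild-type 1DAG replicates 2 and 3 together, a choice made after the values were seen, 5 high-numbered and 27 low-numbered members were lower and 9 members were higher, against 15.3% of all rows lower and 16.8% higher. The shares of high-numbered members lower and of members higher were thus under those of all rows. That fit leaves 1 wild-type 1DAG library, which is assumed to vary like the other groups. Without the pair that stood apart, wild-type 1DAG replicate 1 and wild-type 10DAG replicate 2, 97 members were lower and 1 higher in wild type, against 12.8% and 15.4% of all rows.

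In wild type, a larger share of members than of MLOC rows was lower at every level of coverage. Under 1 CPM 62.0% of members and 13.5% of MLOC rows were lower, and from 1 to under 5 CPM 72.1% and 16.0%. The band under 1 CPM holds all 19 members that passed the filter through 1DAG libraries alone. These could hardly fail to be lower, so the shares of that band are a description in both genotypes. From 5 to under 25 CPM it was 4 of 6 members and 15.3% of MLOC rows, and at 25 CPM or more 2 of 2 members and 10.0% of MLOC rows. In AtCKX1 the first 2 bands gave 41.8% of members against 11% of MLOC rows and 58.1% against 14.6%, and at 25 CPM or more 0 of 2 members were lower.

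In AtCKX1, 62 of 130 members (47.7%) were lower at 10DAG and 2 higher, against 12.3% and 15.7% of all tested rows (28.0% in either direction). Among MLOC rows 12% were lower. The median log2 change was -1.24 over members and -0.01 over all rows. Here the low-numbered series carried the calls: 59 of its 87 members (67.8%) were lower and 2 higher (median -1.80), whereas 3 of 43 high-numbered members (6.98%) were lower and 0 higher (median -0.59). In 85 members, 73 of them low-numbered, every 10DAG library lay below every 1DAG library (background 32.7%). Some of the 62 passed the filter through 1DAG libraries alone and could hardly fail to be lower. Of members with 10 or more counts in every library, 28 of 36 low-numbered and 1 of 19 high-numbered ones were lower. None of these members was higher. Among MLOC rows with that coverage 12.1% were lower and 13.1% higher. With each library left out in turn, between 53 and 61 low-numbered and between 1 and 4 high-numbered members were lower. When only the 6 AtCKX1 libraries were fitted, 70 members were lower, 63 of them low-numbered. The matching fit of the 6 wild-type libraries gave 66. Which genotype had more members lower thus depended on the libraries fitted.

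**Figure D3:**
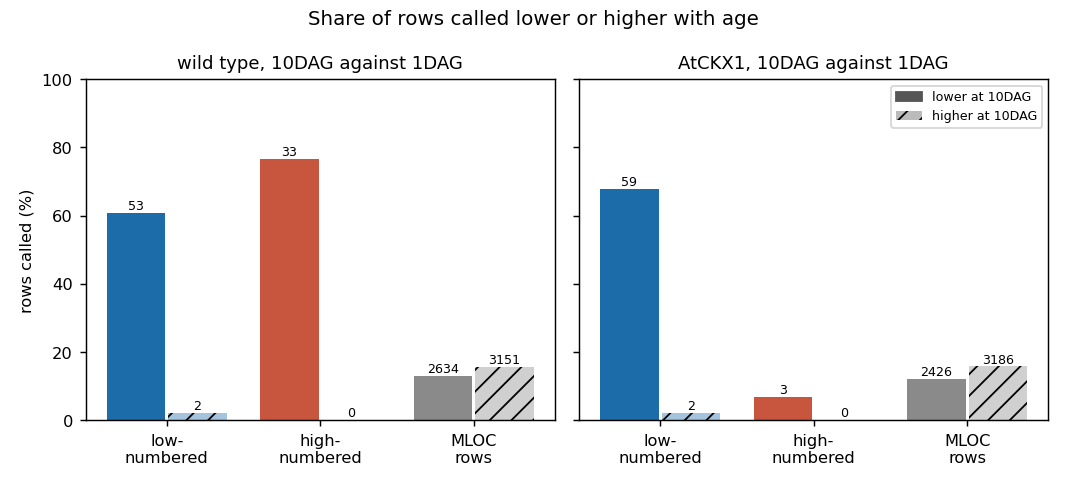
Share of rows (y axis, %) called lower (solid bars) or higher (hatched bars) at 10DAG than at 1DAG in wild type (left) and AtCKX1 (right), for the low-numbered members, the high-numbered members and MLOC rows. Numbers above bars are rows called. High-numbered members called lower number 33 in wild type and 3 in AtCKX1, and low-numbered members 53 and 59. These counts are from the fit of all 12 libraries and differ when each genotype is fitted alone.

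The age comparisons in the 2 genotypes share no library, but 1 filter over all 12 libraries chose the rows of both. Members lower in both numbered 52 of 130 (40%), while 9.39% of all tested rows were lower in both. These 52 were 60.5% of the members lower in wild type, where the matching share over all tested rows was 70.0%, and 83.9% of the members lower in AtCKX1, against 76.5%. Of the 52, 49 were low-numbered. Some of the 52, such as EPlHVUG00000000131 and EPlHVUG00000001221, passed the filter through 1DAG libraries alone, so they could hardly fail to be lower at 10DAG. Another 34 members were called lower in wild type alone, 30 of them high-numbered, and 10 in AtCKX1 alone, all low-numbered. Both members that were higher in wild type were also the 2 higher in AtCKX1 (12.4% of all tested rows were higher in both), and 32 members were called in neither. A call in 1 genotype alone is not a difference between genotypes, which was tested on its own as given further on.

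**Figure D4:**
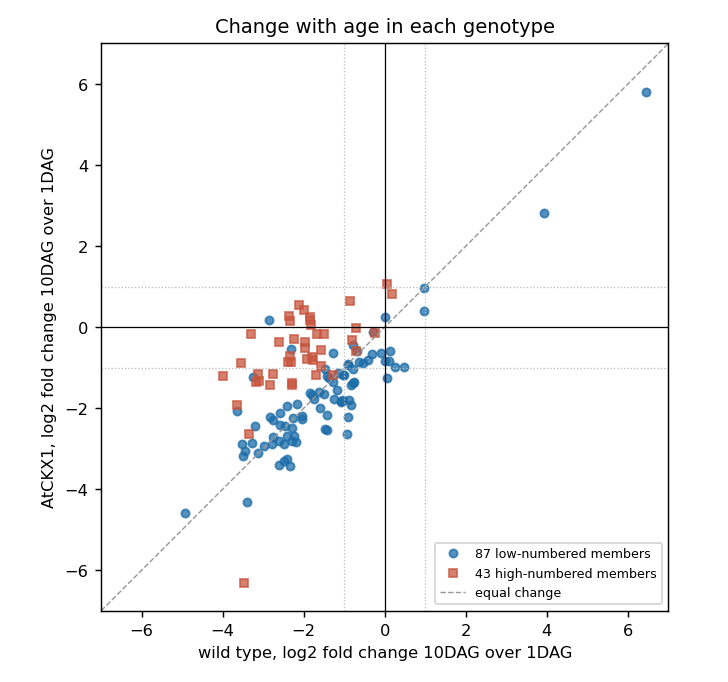
Fitted log2 fold change from 1DAG to 10DAG of each member in wild type (x axis) and AtCKX1 (y axis), with 87 low-numbered members as circles and 43 high-numbered members as squares. The dashed line marks equal change and dotted lines the fold limit of 1. Low-numbered members lie along the dashed line, and high-numbered ones mostly above it (median -2.0 in wild type and -0.59 in AtCKX1), and values of rows with a group at 0 counts depend on the fit's prior.

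Among the named low-numbered members with 10 or more counts in every library, 3 had large falls of similar size in both genotypes. Other low-numbered members with that coverage, not chosen by the naming rule, had such falls too. EPlHVUG00000001159 had 8.43, 10.7 and 12.5 CPM in wild type at 1DAG and 2.35, 1.05 and 1.29 at 10DAG, and in AtCKX1 9.46, 8.93 and 6.68 at 1DAG and 1.85, 1.97 and 1.5 at 10DAG. It fell by 2.75 on the log2 scale in wild type (SE 0.29, adjusted p = 2.27e-05, edgeR) and by 2.30 in AtCKX1 (SE 0.29, adjusted p = 7.17e-05). Neither genotype had any overlap between ages.

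EPlHVUG00000000405 had 6.88, 8.03 and 7.19 CPM in wild type at 1DAG and 1.00, 1.19 and 0.928 at 10DAG, and in AtCKX1 7.32, 4.97 and 3.71 at 1DAG and 1.48, 1.23 and 0.893 at 10DAG. Its log2 changes were -2.83 (SE 0.28, adjusted p = 1.36e-05, edgeR) and -2.21 (SE 0.28, adjusted p = 6.48e-05). The tightest of the 1DAG groups was wild type, at 7.36 ± 0.593 CPM (SD, n = 3). EPlHVUG00000000803 had 3.97, 6.12 and 5.12 CPM in wild type at 1DAG and 1.17, 0.942 and 1.05 at 10DAG, and in AtCKX1 5.00, 4.68 and 3.21 at 1DAG and 0.971, 1.06 and 0.814 at 10DAG. It fell by 2.26 (SE 0.25, adjusted p = 3.07e-05, edgeR) and by 2.24 (SE 0.26, adjusted p = 3.57e-05), and all 6 libraries at 10DAG lay below all 6 at 1DAG.

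**Figure D5:**
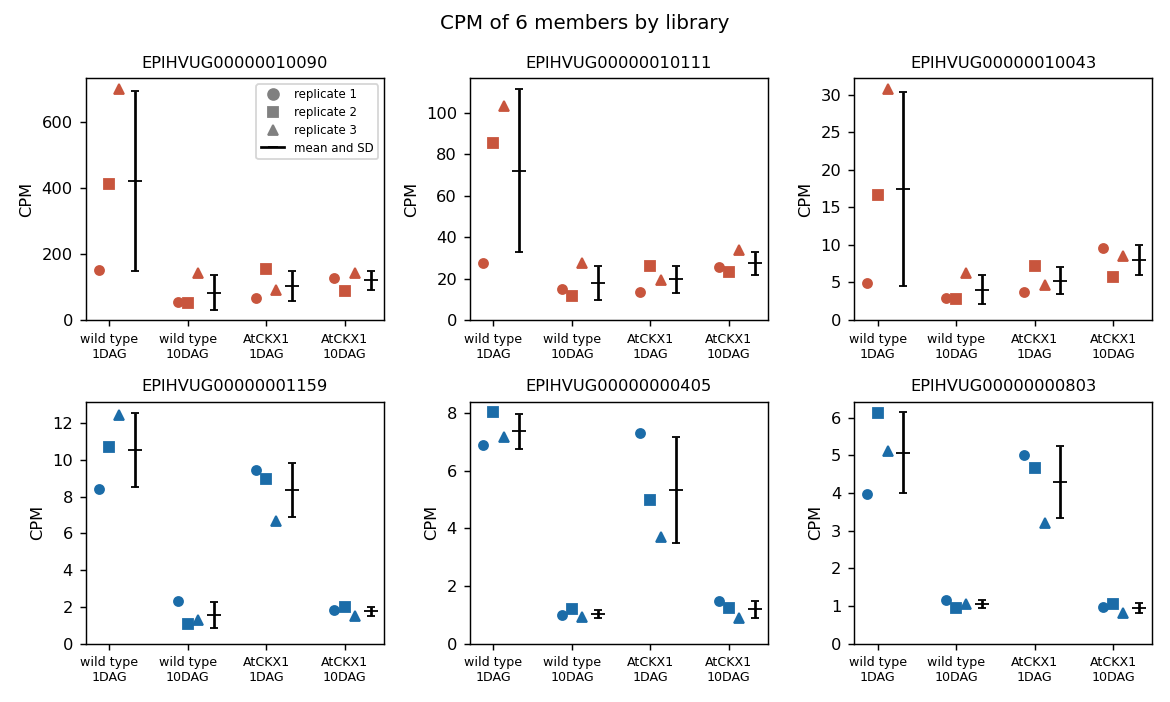
CPM (y axis, linear from 0) of 6 members in each library, by genotype and age (x axis), with replicates 1 to 3 as symbols and the mean and SD of 3 libraries as bars. The upper row holds high-numbered members, which were highest in wild-type 1DAG replicates 2 and 3, and the lower row low-numbered members, which were lower at 10DAG in both genotypes.

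The other low-numbered members among the 10 with the most reads changed by about the fold limit. EPlHVUG00000000348 had 4.82, 8.82 and 9.89 CPM in wild type at 1DAG and 3.60, 3.91 and 4.03 at 10DAG, with log2 changes of -1.03 in wild type (SE 0.24, adjusted p = 0.0039, edgeR) and -1.19 in AtCKX1 (SE 0.24, adjusted p = 0.0017). EPlHVUG00000000918 had 4.56, 8.87 and 8.73 CPM in wild type at 1DAG and 3.25, 3.16 and 3.59 at 10DAG, with changes of -1.15 (adjusted p = 0.002, edgeR) and -1.13 (adjusted p = 0.00235). EPlHVUG00000001095, the low-numbered member with the most reads, changed by -0.78 in wild type (SE 0.23, adjusted p = 0.0128, edgeR), under the fold limit, and by -1.02 in AtCKX1 (SE 0.23, adjusted p = 0.00301), just past it. All 3 were lower in every 10DAG library than in any 1DAG library of the same genotype.

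The largest fitted falls were of rows with few reads. EPlHVUG00000000131, EPlHVUG00000001767, EPlHVUG00000001221, EPlHVUG00000001287, EPlHVUG00000010024 and EPlHVUG00000010096 are among the 19 members that passed the filter through 1DAG libraries alone. They had to be higher there, so their values are a description and their tests support nothing. EPlHVUG00000000131 had 4, 4 and 32 counts in wild type at 1DAG and 0, 0 and 1 at 10DAG, and in AtCKX1 15, 12 and 5 counts at 1DAG and 0, 1 and 0 at 10DAG. The pooled level was 39.6 times higher at 1DAG in wild type (95% exact counting interval 6.72 to 1604, adjusted p = 0.00831, edgeR) and 31.2 times higher in AtCKX1 (5.22 to 1271, adjusted p = 0.0134). Counting intervals here cover counting error only. Wild-type 1DAG replicate 3 alone gave 32 of its 40 wild-type counts at 1DAG.

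EPlHVUG00000001767 had 14, 12 and 16 counts in wild type at 1DAG and 1, 2 and 0 at 10DAG, a level 13.9 times higher at 1DAG (4.43 to 70.0, adjusted p = 0.0017, edgeR). In AtCKX1 it fell by 2.06 on the log2 scale (SE 0.63, adjusted p = 0.0165). EPlHVUG00000000486 had 1.47, 2.36 and 1.54 CPM in wild type at 1DAG and 0.288, 0.139 and 0.0244 at 10DAG, with log2 changes of -3.52 (SE 0.56, adjusted p = 0.000305, edgeR) and, in AtCKX1, -2.88 (SE 0.53, adjusted p = 0.000821). Both members were lower at 10DAG in both genotypes with no overlap between ages, which for EPlHVUG00000001767 the filter had all but fixed.

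In AtCKX1, EPlHVUG00000001221 had 10, 30 and 25 counts at 1DAG and 0, 3 and 0 at 10DAG, a level 21.1 times higher at 1DAG (6.92 to 105, adjusted p = 0.00262, edgeR), and it fell by 3.41 in wild type (SE 0.92, adjusted p = 0.00876). EPlHVUG00000000123 had 1.01, 1.26 and 0.637 CPM in AtCKX1 at 1DAG and 0.0231, 0.145 and 0.105 at 10DAG, with log2 changes of -3.42 in AtCKX1 (SE 0.80, adjusted p = 0.00398, edgeR) and -2.33 in wild type (SE 0.74, adjusted p = 0.0198). EPlHVUG00000001287 fell by 3.41 in AtCKX1 (SE 0.61, adjusted p = 0.000697, edgeR) and by 2.60 in wild type (SE 0.57, adjusted p = 0.00245). All of these low-numbered members were called in both genotypes, but for EPlHVUG00000001221 and EPlHVUG00000001287 the filter had all but fixed the direction.

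Large falls of the high-numbered series were mostly seen in wild type. EPlHVUG00000010087 had 1.12, 2.48 and 13.8 CPM in wild type at 1DAG and 0.231, 0.249 and 0.610 at 10DAG, and its log2 change of -3.99 rested largely on replicate 3 (SE 0.90, adjusted p = 0.00295, edgeR). In AtCKX1 it changed by -1.21 (SE 0.82, adjusted p = 0.234). EPlHVUG00000010077 had 7.49, 7.95 and 10.1 CPM in wild type at 1DAG, against 0.385, 0.194 and 1.59 at 10DAG. In AtCKX1 it had 1.88, 0.587 and 4.82 CPM at 1DAG and 0.648, 1.27 and 2.23 at 10DAG. Its log2 change was -3.54 in wild type (SE 0.84, adjusted p = 0.0042, edgeR) and -0.87 in AtCKX1 (SE 0.78, adjusted p = 0.365).

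Of the 3 high-numbered members lower in both genotypes, EPlHVUG00000010024 had the fewest reads. It had 5, 11 and 20 counts in wild type at 1DAG and 1, 1 and 1 at 10DAG, and in AtCKX1 3, 21 and 6 counts at 1DAG and 0, 0 and 0 at 10DAG. Its level was 11.9 times higher at 1DAG in wild type (3.76 to 60.3, adjusted p = 0.0142, edgeR) and at least 9.76-fold higher in AtCKX1, taking 3 counts as the floor for the whole group (adjusted p = 0.00473). The other two, EPlHVUG00000010099 and EPlHVUG00000010096, are named because they complete a count of 3. EPlHVUG00000010099 changed by -1.28 in wild type (adjusted p = 0.0127, edgeR) and -1.19 in AtCKX1 (adjusted p = 0.0193), and EPlHVUG00000010096 by -3.34 (adjusted p = 0.00915) and -2.63 (adjusted p = 0.0431).

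Only EPlHVUG00000000776 and EPlHVUG00000000074 were called higher with age, and both were called in both genotypes. They are the 2 members that passed the filter through 10DAG libraries alone, so they had to be higher there, and their tests add nothing to that choice. EPlHVUG00000000776 had 0 counts in all 6 libraries at 1DAG, 14, 17 and 1 counts in wild type at 10DAG and 4, 16 and 2 in AtCKX1 at 10DAG. It was at least 10.8-fold higher at 10DAG in wild type (adjusted p = 0.0192, edgeR) and at least 7.52-fold higher in AtCKX1 (adjusted p = 0.0351), taking 3 counts as the floor for a whole group at 0. It passed the filter with the lowest mean level of all members, 0.104 CPM.

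EPlHVUG00000000074 had 0, 1 and 1 counts in wild type at 1DAG and 27, 5 and 7 at 10DAG, and in AtCKX1 0, 2 and 2 counts at 1DAG and 11, 6 and 13 at 10DAG. The wild-type level was 19.7 times higher at 10DAG (5.10 to 168, adjusted p = 0.00484, edgeR), and the log2 change in AtCKX1 was 2.81 (SE 0.88, adjusted p = 0.0189). Both rises rest on 22 to 39 counts per group at 10DAG and did not enter fits that required a mean of at least 10 counts, where 0 members were higher.

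Between genotypes at 1DAG, 0 of 130 members were called by edgeR, against 0.528% of all tested rows (107 of 20280). At an unadjusted p under 0.05, 14 members differed, 12 of them high-numbered, while 18.3% of all rows did, so members as a whole were under the background. The estimates of the high-numbered series lay on one side, with 42 of 43 below 0 and a median log2 difference of -1.0 (AtCKX1 over wild type), while the median was 0.09 in the low-numbered series. These 43 values come from the same libraries and are not independent. DESeq2 called 4 of 130 members lower in AtCKX1, about its share of 2.87% over all tested rows. These were EPlHVUG00000001463 (log2 difference -2.97, adjusted p = 0.0264), EPlHVUG00000010043 (-1.72, adjusted p = 0.0358), EPlHVUG00000010090 (-2.0, adjusted p = 0.0365) and EPlHVUG00000010111 (-1.85, adjusted p = 0.00289). Without wild-type 1DAG replicate 1, edgeR called 2 members and 0.286% of all rows lower, the members being EPlHVUG00000010074 (-1.42, adjusted p = 0.0243) and EPlHVUG00000010111 (-2.25, adjusted p = 0.0342). Without wild-type 1DAG replicates 2 and 3, it called 0 members lower and 20 higher, against 12% and 6.17% of all rows.

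EPlHVUG00000001463 is singled out after its values were seen, as the only low-numbered member among these. It had 27, 36 and 23 counts in wild type at 1DAG against 3, 3 and 5 in AtCKX1, which did not overlap, and 7, 0 and 5 in wild type against 1, 8 and 4 in AtCKX1 at 10DAG. The log2 difference at 1DAG by edgeR was -2.92 (SE 0.74, adjusted p = 0.137), short of the threshold. Its 3 wild-type 1DAG libraries were at 0.550, 0.868 and 0.580 CPM. It was the 1 member that passed the filter through wild-type libraries alone, so it had to be higher there.

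At 10DAG edgeR called 0 of 130 members between genotypes, against 1.25% of all tested rows (254 of 20280), and so did DESeq2. At an unadjusted p under 0.05, 6 members differed, against 13.7% of all rows. The median log2 difference was 0.41 in the high-numbered series, with 34 of 43 estimates above 0, and -0.11 in the low-numbered series.

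The difference between the age effects of the genotypes was tested directly. By edgeR 0 of 130 members were called, against 0.464% of all tested rows (94 of 20280), and 16 differed at an unadjusted p under 0.05, 13 of them high-numbered, against 7.17% of all rows. In the high-numbered series the difference (AtCKX1 minus wild type) had a median of 1.5, with 42 of 43 above 0. In the low-numbered series the median was -0.19. DESeq2 called 3 members and 1.04% of all rows higher, the members being EPlHVUG00000010043 (2.67, adjusted p = 0.0300), EPlHVUG00000010074 (2.03, adjusted p = 0.0348) and EPlHVUG00000010111 (2.44, adjusted p = 0.00899), and gave no adjusted p for 13 members.

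EPlHVUG00000010074 had 1.63, 4.58 and 5.98 CPM in wild type at 1DAG and 1.15, 0.942 and 1.32 at 10DAG, while its AtCKX1 libraries stayed between 1.91 and 2.52 CPM at both ages. The edgeR estimate of the difference was 2.00 (SE 0.55, adjusted p = 0.237) over all libraries and 2.42 (adjusted p = 0.00672) without wild-type 1DAG replicate 1. That fit called 4 members and 0.587% of all rows higher, the other members being EPlHVUG00000010043 (3.12, adjusted p = 0.0420), EPlHVUG00000010066 (3.14, adjusted p = 0.0332) and EPlHVUG00000010111 (2.84, adjusted p = 0.0374). Without wild-type 1DAG replicates 2 and 3, 0 members were higher and 15 lower, while 4.63% of all rows were higher and 3.99% lower. That fit calls many more rows of every kind than the fit of all libraries.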

How the data were processed

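After trimming, the authors mapped the reads by TopHat against the cv. Morex genome, and HTSeq 0.6.0 gave the counts per gene with strand taken into account. The deposited values are raw counts, 1 table per library. Groups were taken from the labels. CPM is the count over the sum of rows that name a gene. Counts of all 12 libraries were fitted in R 4.3.3 with edgeR 4.0.16 (TMM, robust quasi-likelihood fit, 1 mean per group), so that both genotypes share 1 estimate of the spread, with rows of 10 or more counts in at least 3 libraries and Benjamini-Hochberg adjustment over all 20280 rows. SE is the log2 fold change over the square root of the statistic and is approximate. The fit was also run on counts simulated from its own estimates of spread. Those counts held no outlying library and no rows moving together, so such cases were not tested. Alternatives were DESeq2 1.42.0, other scalings, filters, fold limits, a replicate block, and libraries left out.

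Members and lists were chosen with earlier results of these data known. Named members are the 10 with the highest mean CPM, up to 5 called rises and falls per comparison whose groups do not overlap, members seen in 1 genotype only (0 found), the 5 called in most comparisons and the 3 steadiest at 25 CPM or more (2 exist). Members named through an alternative fit, through likeness to EPlHVUG00000010090 or to complete a small count were chosen after their values were seen. Where nothing says that replicates came from separate plants, p-values measure only the spread between these libraries, which may be technical. DESeq2 was used by the authors to compare ages. No exact permutation test was made, since sums over chosen members get none.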

Additional observations from a re-analysis of the deposited data

How the results depend on the processing

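The direction of the change with age over members was kept under every scaling and tool run. With 10 or more counts in every library (55 members), 37 were lower in wild type (23 low-numbered, 14 high-numbered) and 28 in AtCKX1 (27 and 1), and 0 higher. With glmTreat against a 2-fold change, 43 (34 and 9) and 33 (32 and 1) were lower, and 1 and 0 higher. With a mean of at least 10 counts, 0 were higher in either genotype, against 15.4% and 15.7% of all rows. With no filter 4 were higher in each. With only the 6 libraries compared, 66 members were lower in wild type (47 low-numbered, 19 high-numbered) and 70 in AtCKX1 (63 and 7). This reversed the order of the genotypes in the main fit (86 and 62), which DESeq2 kept (82 and 58). DESeq2 called 4 members lower between genotypes at 1DAG (2.87% of all rows) and 3 higher for the difference of age effects (1.04%). Without wild-type 1DAG replicates 2 and 3 (chosen after seeing the data), 32 members were lower (27 and 5) and 9 higher in wild type, 5 high-numbered members lower in AtCKX1, 20 higher in AtCKX1 at 1DAG, and 15 lower in the difference of age effects. Without the 3 most abundant members, summed CPM were 244, 80.2, 194 and 92.3 in the order given above. Some of these fits held fewer members or libraries, and the cause of these changes was not tested.

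Leaving out 1 library at a time gave 64 to 101 members lower and 2 to 3 higher in wild type (46 to 62 low-numbered, 18 to 39 high-numbered), 55 to 65 lower and 0 to 3 higher in AtCKX1 (53 to 61 and 1 to 4), 0 to 2 lower between genotypes at 1DAG, and 0 to 4 higher for the difference of age effects. Summed CPM then ranged from 543 to 963 (wild type, 1DAG), 153 to 217 (10DAG), 279 to 353 (AtCKX1, 1DAG) and 242 to 276 (10DAG). Whether replicate numbers pair the samples could not be decided, since deviations from means of 3 libraries are a weak check. The r of same-numbered deviations ran from -0.34 to 0.36 over 18 pairs, 2 of them over 0.1. In 3 of the 18 pairs it exceeded the r with both other numbers. With the replicate block 79 members were lower in wild type and 61 in AtCKX1. The median member, at 0.691 CPM, has few counts per library, which limits its single values.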

Other observations

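The 269 EPlHVUG rows under the filter, 229 low-numbered and 40 high-numbered, held 4082 reads over all libraries, against 194553 on members. Their summed CPM was 13.1 ± 8.16 in wild type at 1DAG, 4.71 ± 0.256 in wild type at 10DAG, 8.69 ± 2.27 in AtCKX1 at 1DAG and 5.17 ± 0.389 in AtCKX1 at 10DAG (SD, n = 3 each). Of these rows 72 had reads at 1DAG only and 37 at 10DAG only.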
